A study of Mus musculus with 2 samples.

Results

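The expression of 10 genes was followed in cultured astrocytes of the dentate gyrus (DG) from WT and β-arr1 KO mice. Of these, 9 are typical of microglia, while Csf1 encodes a growth factor secreted by astrocytes and other cells. The 9 genes are its receptor gene Csf1r, the receptor and adaptor genes Trem2, Tyrobp and Fcer1g, and the transcription factor gene Spi1. To these come the marker and receptor genes Aif1, Cd68, Ptprc and Cd14. All 10 were taken by name out of 16302 gene symbols in the joined tables of both libraries. They were chosen as known genes of microglia and of the signal through the CSF1 receptor. All 10 genes were listed in both tables. Of these, 9 were found by their symbol and Spi1 was found by its NCBI gene number, as the tables list it under its older symbol Sfpi1. The data were RNA sequencing values from 1 WT library and 1 KO library. Both came from adult mice of the C57BL/6 strain, and the KO mice were knockouts of the β-arrestin 1 gene (β-arr1-/-), with no cell-type restriction, other allele or agent named. The cells were grown on Matrigel in serum-containing medium and shaken to detach loosely held cells before RNA was taken, and their purity was judged by staining for S100β. The cDNA of each genotype was pooled, so differences between animals or cultures within a genotype were not measured, and no test of genotype was made.

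Microglia are the resident macrophages of the brain. They derive from the yolk sac, depend on signals through the CSF1 receptor for survival, and take up debris and microbes. Their identity rests on PU.1, the product of Spi1, which binds purine-rich sites at many myeloid genes. Glial cultures from rodent brain commonly hold microglia among the astrocytes. In a mixed culture, fewer cells of a type and less RNA per cell cannot be told apart from bulk values.

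The values are in FPKM, that is, fragments per kilobase of transcript, scaled to the mapped fragments of the library, and can be compared between genes because they are scaled by length. The tables held 15417 genes for WT (median 7.04 FPKM) and 15457 genes for KO (median 7.16 FPKM). Steps in the lowest values corresponded to about 9.36 M mapped fragments in WT and 9.64 M in KO. The targeted gene Arrb1 had 7.62 FPKM in WT and 2.72 FPKM in KO, giving a ratio of 0.358. Gfap, which encodes the main intermediate filament of astrocytes, measured 189 FPKM in WT against 192 FPKM in KO. The Y-linked genes Ddx3y, Kdm5d, Uty and Eif2s3y were listed in KO only, at 0.635 to 4.53 FPKM, and Xist was at 39.4 FPKM in WT against 29.7 in KO. The sex of the pooled animals and the genotype cannot be told apart.

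Of the 10 genes, 9 had a lower value in KO than in WT, and Csf1 had a higher one. The median ratio of KO vs. WT over the 10 genes was 0.775, and it was 1.01 over the 12171 genes that appeared in both tables and reached 1 FPKM in WT or KO. A ratio below 1 was found for 46.9% of these genes. A gene was counted as past the limits when its ratio was above 3/2 or below 2/3, as were 14.6% of all genes, with 7.9% above and 6.72% below. Among the 10 genes, only Cd68 was below 2/3 and none was above 3/2, so the count past the limits was close to that of all genes. All 10 genes were above 5 FPKM, and of the 9143 genes that reached 5 FPKM in WT or KO, 47.6% had a ratio below 1 and 4.6% one below 2/3. The summed level of the 10 genes was 1189 FPKM in WT against 976 in KO, which made up 0.318% and 0.262% of the summed FPKM of each library. Without Csf1, the sum was 1017 FPKM in WT against 753 in KO, a ratio of 0.740, and the median ratio was 0.773.

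**Figure D1:**
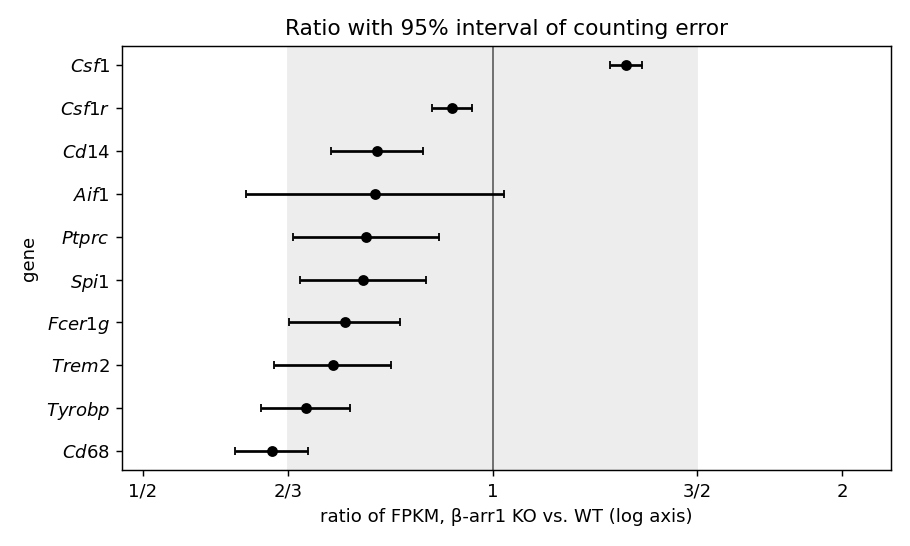
Ratio of FPKM, β-arr1 KO vs. WT, for each of the 10 genes on a log axis, with bars for the 95% interval of counting error in 1 library per genotype and grey shading for ratios between 2/3 and 3/2. The points run from Cd68 at 0.645 to Csf1 at 1.30, and Csf1 is the only gene to the right of 1.

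The 95% intervals given with the ratios cover the counting of fragments only, with fragments estimated from the steps and the length of the annotated transcript. They hold no difference between animals or cultures. The interval lay below 1 for 8 of the 10 genes, above 1 for Csf1, and included 1 for Aif1. When the shortest coding transcript was used for the length, the interval lay below 1 for 7 genes and also included 1 for Spi1. The plot of ratios shows that the counting error was narrow for the abundant genes and wide for Aif1.

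The 10 genes covered a wide range of levels in both cultures. Tyrobp ranked at 122 from the highest among the genes of the WT library, ahead of Gfap at 266. At the other end, Ptprc ranked at 7209 in WT, where 53.2% of the listed genes were at or below it. In WT, the order of FPKM from high to low was Tyrobp, Cd68, Csf1, Fcer1g, Csf1r, Cd14, Trem2, Spi1, Aif1 and Ptprc. The counting intervals of the levels overlapped for the neighbours Fcer1g and Csf1r and for Cd14 and Trem2, so that these pairs were not distinguishable. Those of Cd68 and Csf1 nearly met, with the lower end of Cd68 at 176.5 FPKM and the upper end of Csf1 at 175.9. Intervals of the levels with shorter transcripts, which give fewer fragments, were not computed, so the order of this pair is uncertain. In KO, Csf1 came first with an interval that overlapped that of Tyrobp, followed by Csf1r, and then by Cd68 and Fcer1g, which also overlapped. Cd14 and Trem2 overlapped again in KO, and the order of Spi1, Aif1 and Ptprc was that of WT.

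**Figure D2:**
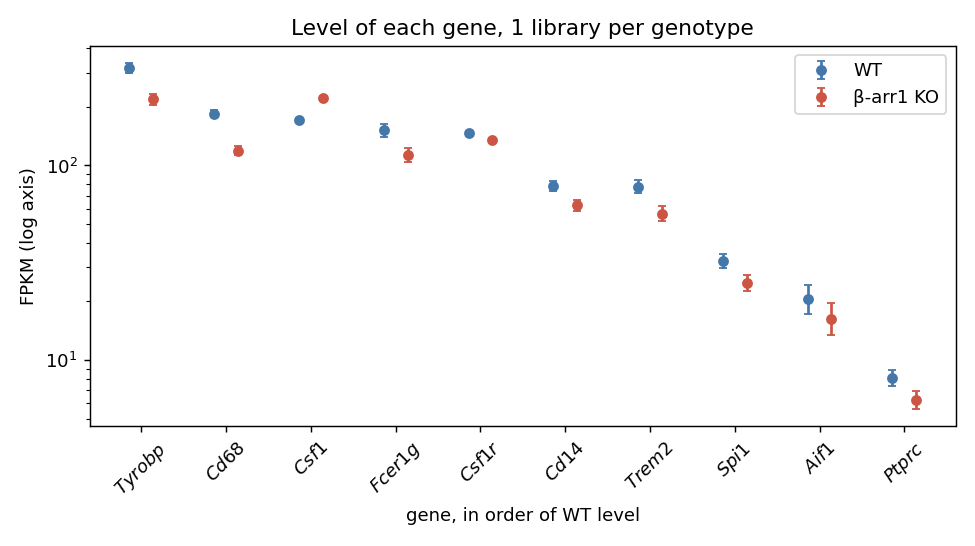
FPKM of each of the 10 genes on a log axis in the WT library (blue) and the β-arr1 KO library (red), with bars for the 95% interval of counting error. The KO point lies below the WT point for every gene except Csf1, which is at 172 FPKM in WT against 224 in KO.

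Ranks do not depend on how a library is scaled. The rank was lower in KO for 9 of the 10 genes and higher for Csf1, which moved from 293 to 208. Tyrobp moved from 122 to 214 and Cd68 from 271 to 479. Csf1r moved less, from 353 to 398. The plot of ranks shows lines that fall from WT to KO for every gene except Csf1, whose line crosses those of Cd68 and Tyrobp.

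**Figure D3:**
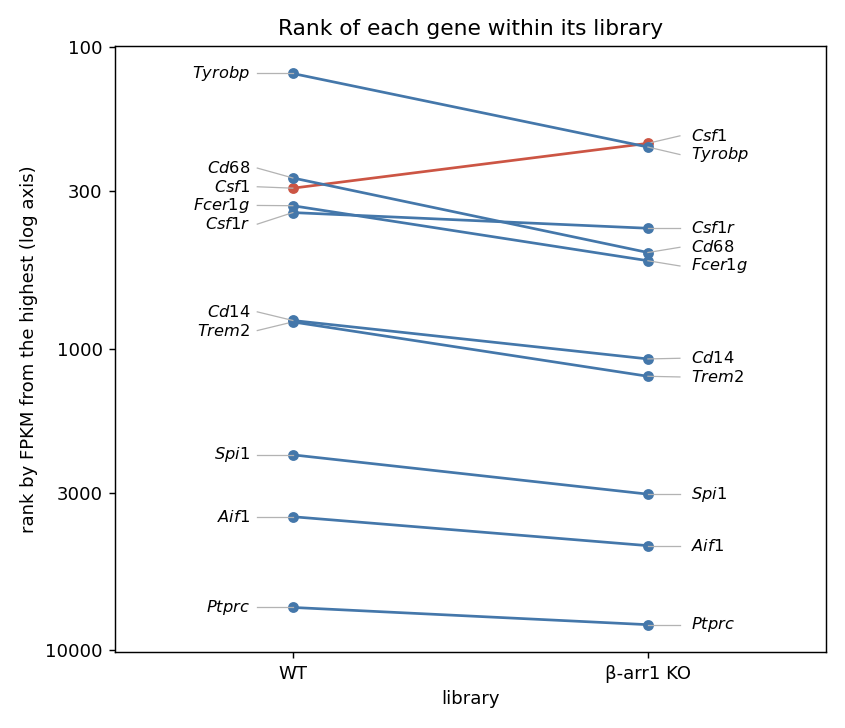
Rank by FPKM within the WT and the β-arr1 KO library, counted from the highest on an inverted log axis, with 1 line per gene, red where the rank was higher in KO and blue where it was lower. Csf1 moves up from 293 to 208, and Tyrobp at the top moves from 122 to 214.

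The ligand and its receptor were considered first. CSF1 is a growth factor secreted by astrocytes and other cells, and it keeps microglia alive through the receptor tyrosine kinase CSF1R. Csf1 (NCBI gene 12977, chromosome 3 from 107543966 to 107563387, mm9) had a level of 172 FPKM for WT and 224 FPKM for KO. The KO value was higher, with a ratio of 1.30 (95% interval 1.26 to 1.34), and 85.7% of all genes had a lower ratio. Csf1r (NCBI gene 12978, chromosome 18 from 61204804 to 61290793) had 146 FPKM in WT and 135 FPKM in the KO library. The KO value was slightly lower, with a ratio of 0.923 (0.887 to 0.960), and 30.0% of all genes had a lower ratio. The level of Csf1 was 1.17 times that of the Csf1r row in WT and 1.65 times in KO.

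The Csf1r row has a limit. It spans 85990 bases and starts at the first base of the neighbouring gene Pdgfrb, a receptor gene of pericytes, whereas Csf1r as annotated spans 26578 bases. Pdgfrb had no row under its own symbol in WT or KO, and its part in the Csf1r value was not tested. The same limit holds wherever a level is set against that of Csf1r. The interval of the Csf1r ratio did not overlap those of Cd68, Tyrobp, Trem2, Fcer1g, Spi1 and Cd14, which all lay lower. With the shortest coding transcript, the interval of Spi1, from 0.542 to 1.10, overlapped that of Csf1r, from 0.873 to 0.976. With the longest transcript, the Csf1r interval overlapped those of Ptprc and Aif1. Without Csf1r, the other 9 genes still held 8 ratios below 1.

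Among the genes of the microglia and myeloid lists, Lyn and P2ry12 had the ratios over the 2 libraries nearest to that of Csf1r. Lyn, a kinase of the Src family in myeloid cells, measured 17.9 FPKM in WT against 16.5 FPKM in KO. P2ry12, the ADP receptor of microglia, was at 2.67 FPKM in WT against 2.46 in KO. Likeness over 2 libraries rests on a single ratio per gene.

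The other genes of the CSF1 receptor pathway, which hold related cytokines, receptors and signal carriers, had a median near 1 but differed among themselves. Of 14 genes, 12 were found and 11 had a ratio, and 0 of the 11 were past the limits. Below 1 were 7 of 11, and the median ratio was 0.952. Stat3, a transcription factor activated by cytokine receptors, measured 50.8 FPKM in WT against 48.6 FPKM in KO. Grb2, an adaptor of receptor tyrosine kinases, was at 28.9 FPKM in WT against 27.5 in KO. Both were nearly level between the libraries. Csf2ra, a receptor chain for the related factor GM-CSF, had 22.3 FPKM in WT and 16.3 FPKM in the KO library. The lowest ratio was that of Csf2rb, the shared chain of that receptor family, at 0.672 (0.555 to 0.811), and the highest was that of Cblb, a ubiquitin ligase, at 1.24.

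TREM2 is a lipid-sensing receptor that signals through DAP12, the adaptor encoded by Tyrobp, and FCER1G is a related adaptor that serves Fc receptors. Both adaptors carry the activation motif called ITAM, which recruits the kinase SYK. Tyrobp (NCBI gene 22177, chromosome 7 from 31198782 to 31202598 in the WT table) measured 317 FPKM in WT against 219 FPKM in KO. It was the highest of the 10 genes in WT, and the ratio was 0.690 (0.632 to 0.754), just inside the limit of 2/3. Fcer1g (NCBI gene 14127, chromosome 1 from 173159703 to 173164480) had a level of 152 FPKM in WT against 113 in KO. The KO value was lower, with a ratio of 0.746 (0.667 to 0.833). Trem2 (NCBI gene 83433, chromosome 17 from 48485726 to 48491598 in the WT table) had 77.7 FPKM in WT and 56.6 FPKM in the KO library. The KO value was again lower, with a ratio of 0.728 (0.648 to 0.818), and the intervals of the 3 genes overlapped.

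The proportions among these genes differed little between the libraries. The level of Tyrobp was 4.08 times that of its receptor Trem2 in WT and 3.87 times in KO. The level of Fcer1g was 0.478 times that of Tyrobp in WT and 0.516 times in KO. Against the Csf1r row, which has the limit given above, Tyrobp stood at 2.17 times in WT and 1.62 times in KO.

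The other receptors and signal carriers that use ITAM adaptors were mostly lower in KO. Of 22 genes, 20 were found and 14 had a ratio, of which 13 were below 1, with a median of 0.808. Past the limits were 4 genes below and 1 gene above. Fcgr3, an Fc receptor gene that pairs with FCER1G, measured 73.9 FPKM in WT against 50.0 FPKM in KO. Inpp5d, which encodes the inhibitory phosphatase SHIP1, was at 11.8 FPKM in WT against 9.57 in KO. The lowest ratio was that of the adaptor gene Blnk, at 0.557. The single gene above 3/2 was Hcst, which encodes the adaptor DAP10, with a ratio of 1.67 that rested on about 4 fragments in WT and 7 in KO, so its interval ran from 0.435 to 7.53. Lat2 was listed in KO only, at 9.34 FPKM, and Card9 in WT only, at 3.19 FPKM. In the other table a row of a neighbouring gene overlapped each of these loci, so no ratio was read from them.

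Genes that microglia raise in states downstream of TREM2 were also measured, although several of them are common in astrocytes and fibroblasts. All 15 genes were found and 13 had a ratio, of which 10 were below 1, with a median of 0.815. Below 2/3 were 2 genes, and none was above 3/2. The highest genes were Tmsb4x, an actin-binding protein gene, at 3805 FPKM in WT against 3593 in KO, and the lysosomal protease genes Ctsd, at 2955 and 2374 FPKM, and Ctsb, at 1356 and 968 FPKM. All of these were lower in KO. The ratio was lowest for Lgals3, the gene of galectin 3, which had 278 FPKM in WT and 145 FPKM in the KO library. It was highest for Cd9, a tetraspanin gene, at 174 FPKM in WT against 233 in KO. The other gene below 2/3 was Spp1, which encodes osteopontin and is named after its values were seen, at 933 FPKM in WT against 521 in KO.

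The general markers of macrophages came next. Cd68 (NCBI gene 12514, chromosome 11 from 69477721 to 69479676 in the WT table) encodes a lysosomal glycoprotein of phagocytes. It measured 185 FPKM in WT against 119 FPKM in KO, which gave the lowest ratio of the 10 genes, 0.645 (0.600 to 0.694). A lower ratio was found for 5.99% of all genes. The interval spanned the limit of 2/3. The genes on either side of Cd68 did not share this difference, as Mpdu1 had a ratio of 1.01 and Eif4a1 of 1.05. Against Csf1r, the level of Cd68 was 1.26 times in WT and 0.882 times in KO.

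Aif1 (NCBI gene 11629, chromosome 17 from 35307937 to 35312946) encodes IBA1, the calcium-binding protein used to stain microglia. It was at 20.5 FPKM in WT against 16.3 in KO, from about 139 and 114 fragments. The ratio of 0.792 had an interval from 0.613 to 1.02, so the difference was not distinguishable from counting error. Ptprc (NCBI gene 19264, chromosome 1 from 139959436 to 140071882) encodes CD45, a phosphatase on all leukocytes. It had 8.06 FPKM in WT and 6.27 FPKM in the KO library, the lowest level of the 10 genes in both, with a ratio of 0.777 (0.672 to 0.898). CD45 is low on microglia and high on other leukocytes. Of the 12 lymphocyte genes that were sought, 6 were found, with a summed level of 2.10 FPKM in WT against 0.650 in KO and none at 1 FPKM. Which cells the Ptprc value came from was not tested.

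Cd14 (NCBI gene 12475, chromosome 18 from 36884721 to 36886308) encodes the co-receptor that hands bacterial lipopolysaccharide to Toll-like receptor 4. It measured 78.5 FPKM in WT against 62.4 FPKM in KO. The KO value was lower, with a ratio of 0.795 (0.725 to 0.871). Against Csf1r, the level of Cd14 was 0.536 times in WT and 0.462 times in KO.

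All 13 other genes of the CD14 and Toll-like receptor 4 pathway had a ratio, and 11 were below 1, with a median of 0.853. Only Ly96 was past the limits. Ly96, which encodes the receptor's partner MD-2, was at 11.1 FPKM in WT against 6.54 in KO, and its ratio of 0.587 had a wide interval from 0.355 to 0.954. Lbp, the gene of the lipopolysaccharide carrier, had 52.2 FPKM in WT and 43.6 FPKM in the KO library. The signal carriers Irak1 and Myd88 were nearly level, with Irak1 at 23.7 and 23.4 FPKM and Myd88 at 13.2 and 12.9 FPKM in WT and KO. The ratio was highest for Irak4, a kinase of the same pathway, at 1.23.

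The cytokine genes that microglia express were mostly lower in KO. Of 10 genes, 9 were found and 7 had a ratio, and 6 were below 1, with a median of 0.711 and none past the limits. The chemokine genes Ccl3, at 16.9 FPKM in WT against 17.0 in KO, and Ccl4, at 29.4 and 20.9 FPKM, had ratios of 1.01 (0.756 to 1.35) and 0.711 (0.545 to 0.923), whose intervals overlapped. Tgfb1, which encodes a growth factor that microglia need, was the highest of the list, at 29.4 FPKM in WT against 26.8 in KO. Tnf, the gene of tumour necrosis factor, measured 5.58 FPKM in WT against 3.94 FPKM in KO. Igf1, a growth factor gene, was at 20.9 FPKM in WT against 14.4 in KO, a ratio of 0.688.

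Spi1 (NCBI gene 20375, chromosome 2 from 90922487 to 90955915 in the WT table) encodes PU.1, without which myeloid cells do not form. It had 32.2 FPKM in WT and 24.9 FPKM in the KO library. The KO value was lower, with a ratio of 0.773 (0.682 to 0.876). The start of the row differed between the tables, at 90922487 in WT and 90936954 in KO, and with the shortest coding transcript the interval ran from 0.542 to 1.10.

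Other transcription factors of the myeloid lineage did not all go the same way. All 12 were found and 11 had a ratio, of which 9 were below 1, with a median of 0.811. Maf measured 31.7 FPKM in WT against 25.7 FPKM in KO, and the C/EBP genes Cebpb, at 19.6 and 16.7 FPKM, and Cebpa, at 17.7 and 13.6 FPKM, were lower in KO as well. The lowest ratio was that of Fli1, at 0.703. None was below 2/3, and 2 were above 3/2, which were Bhlhe41, a clock-related repressor, at 8.04 FPKM in WT against 18.9 in KO, and Mef2c, named after its values were seen, at 4.81 FPKM in WT against 7.44 in KO. Both of these factors are also found outside the myeloid lineage, as are some that were lower in KO, such as Cebpa and Cebpb.

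The sequences before the start sites are shown because PU.1 acts through short purine-rich sites. Whether the level of Spi1 had a part in the ratios of the other genes was not tested. Aif1, Cd68, Csf1, Fcer1g, Ptprc and Trem2 were matched in a RefSeq promoter table (GRCm38.p6), and Csf1r, Cd14, Spi1 and Tyrobp were not. The 250 bases before each start were searched for the letters GAGGAA, part of the PU.1 motif, on both strands, so that TTCCTC was counted as well. Of the 6 genes, 4 held a match, beside 25.9% of the 27025 genes in the table and 23.3% of 32851 promoters. The sequences run 5′ to 3′ on the strand of the gene and end at the base before the start, with the match in capitals. Cd68 lies at chr11:69666171-69666420 on the minus strand, with 219 bases between the match and the start. Ptprc lies at chr1:138175306-138175555 on the minus strand, with 152 bases. Trem2 lies at chr17:48346151-48346400 on the plus strand, with the match on the other strand and 34 bases. Aif1 lies at chr17:35176053-35176302 on the minus strand, with the match on the other strand and 1 base. Csf1, at chr3:107760470-107760719 on the minus strand, is shown as the gene that was higher in KO, and these letters are not in its window.
Cd68: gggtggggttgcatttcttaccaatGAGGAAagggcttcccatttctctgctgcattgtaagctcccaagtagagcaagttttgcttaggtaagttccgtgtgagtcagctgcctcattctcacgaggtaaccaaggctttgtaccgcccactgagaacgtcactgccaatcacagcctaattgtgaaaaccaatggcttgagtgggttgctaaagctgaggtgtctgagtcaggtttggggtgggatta
Ptprc: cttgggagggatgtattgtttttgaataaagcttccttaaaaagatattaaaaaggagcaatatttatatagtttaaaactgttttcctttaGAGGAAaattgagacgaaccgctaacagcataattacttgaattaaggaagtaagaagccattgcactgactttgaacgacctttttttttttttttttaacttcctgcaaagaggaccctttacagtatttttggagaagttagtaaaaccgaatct
Trem2: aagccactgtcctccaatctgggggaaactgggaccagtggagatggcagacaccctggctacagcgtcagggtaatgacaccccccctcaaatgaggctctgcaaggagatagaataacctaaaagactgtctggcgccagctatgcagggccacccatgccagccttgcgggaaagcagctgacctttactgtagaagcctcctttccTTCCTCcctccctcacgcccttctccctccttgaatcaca
Aif1: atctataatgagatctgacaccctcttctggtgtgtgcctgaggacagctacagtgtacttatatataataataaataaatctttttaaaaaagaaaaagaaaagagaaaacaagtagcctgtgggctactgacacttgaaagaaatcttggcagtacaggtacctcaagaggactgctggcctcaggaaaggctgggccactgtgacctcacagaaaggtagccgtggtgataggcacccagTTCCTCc
Csf1: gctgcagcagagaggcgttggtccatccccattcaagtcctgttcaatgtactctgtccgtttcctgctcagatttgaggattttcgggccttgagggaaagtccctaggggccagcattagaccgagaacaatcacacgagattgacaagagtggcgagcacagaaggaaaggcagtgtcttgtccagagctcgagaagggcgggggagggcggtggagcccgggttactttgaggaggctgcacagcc

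The windows of Fcer1g and of another start of Ptprc held no match either. A match of 6 letters is a description and no measure of binding. The genes with a match had ratios from 0.645 for Cd68 to 0.792 for Aif1. Of those without a match, Fcer1g lay between them at 0.746 and Csf1 was at 1.30. Whether a match goes with the ratio was not tested.

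The broader phagocyte genes went in one direction. Of 24 genes that macrophages of any origin express, 23 had a ratio, and 23 of 23 were below 1, with a median of 0.753. Below 2/3 were 4 genes, and none was above 3/2. The complement genes C1qa, at 246 FPKM in WT against 181 in KO, C1qb, at 250.2 and 198 FPKM, and C1qc, at 278 and 208 FPKM, were the most abundant and had ratios from 0.738 to 0.793, near those of Tyrobp, Trem2 and Fcer1g. The lowest ratio was that of Vav1, an exchange factor gene of blood cells, at 0.570 (0.489 to 0.663), and the highest was that of Ly86, at 0.950. Other genes below 2/3, named after their values were seen, included Fcgr1 at 0.590 and Cd37 at 0.647.

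Genes that set microglia apart from other macrophages were mixed. All 14 homeostatic genes were found and 11 had a ratio, with 7 below 1, a median of 0.961 and none past the limits. The median is the ratio of Tmem119, whose interval ran from 0.335 to 2.76 with a transcript length of 336 bases. The summed level of the list was 492 FPKM in WT against 426 in KO, a ratio of 0.865. Among the most abundant were Ctss, a cathepsin gene at 167 FPKM in WT against 122 in KO, and Fcrls, at 64.7 and 50.3 FPKM. Both were lower in KO. Sall1, a transcription factor gene of microglia that neural progenitors also use, had the highest ratio, at 4.94 FPKM in WT against 7.36 in KO. The fractalkine receptor gene Cx3cr1, named after its values were seen, was at 24.8 FPKM in WT against 25.9 in KO, a ratio of 1.05 (0.950 to 1.15).

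Single homeostatic markers differed widely in level. Olfml3, named after its values were seen, was at 21.4 FPKM in WT against 21.5 in KO, and Gpr34 was listed in KO only, at 2.65 FPKM, with a row of its neighbour Cask over the locus in the WT table. P2ry12, at 2.67 FPKM in WT, had an interval from 0.618 to 1.37. Tmem119, named after its values were seen, had 5.11 FPKM in WT and 4.91 FPKM in the KO library. About 9 fragments in each were estimated for Tmem119 with a transcript length of 336 bases, and a longer transcript would give more. Siglech was listed in KO only, at 0.0458 FPKM. The level of Csf1r was 54.8 times that of P2ry12 in WT and 54.9 times in KO, and 28.7 and 27.5 times that of Tmem119. Of the markers of microglia identity, Fcrls, Cx3cr1 and Olfml3 were thus well above the median of all genes in both cultures, while P2ry12 and Tmem119 were below it and Siglech was near 0.

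Markers of border macrophages, which line the meninges and vessels, were lower in KO, as 9 of the 10 genes were. Of 9 genes, 8 were found and 5 had a ratio, and 5 of 5 were below 1, with a median of 0.629 and 3 below 2/3. Ms4a7 measured 43.5 FPKM in WT against 20.8 FPKM in KO, a ratio of 0.478 (0.436 to 0.524). Mrc1, the mannose receptor gene, was at 11.7 FPKM in WT against 6.24 in KO, a ratio of 0.532. Adgre1, the gene of F4/80, which is listed as Emr1 and which microglia express too, had 48.2 FPKM in WT and 30.3 FPKM in KO, giving a ratio of 0.629. The remaining markers with a ratio were inside the limits, with Pf4 at 16.1 and 10.9 FPKM and Cbr2 at 81.4 and 72.5 FPKM in WT and KO. Lyve1, at 0.129 and 0.0836 FPKM, and F13a1, at 0.370 and 0.360 FPKM, were below the minimum of 1 FPKM. Cd163 was listed in KO only, at 0.0481 FPKM. The summed level of the list was 201 FPKM in WT against 141 in KO.

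Of the monocyte and granulocyte genes, 3 of 10 had a ratio. Lyz2, the lysozyme gene of macrophages and monocytes, was among the highest genes of both libraries, at 3410 FPKM and rank 4 in WT and 2009 FPKM and rank 12 in KO. Its ratio was 0.589. Csf3r measured 4.54 FPKM in WT against 2.72 FPKM in KO, and S100a8 was at 5.22 and 7.67 FPKM with an interval of its ratio from 0.667 to 3.37. The summed level of the list was 3422 FPKM in WT against 2020.0 in KO, nearly all of it from Lyz2. The part of border macrophages and monocytes in the ratios of the 10 genes was not tested.

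**Figure D4:**
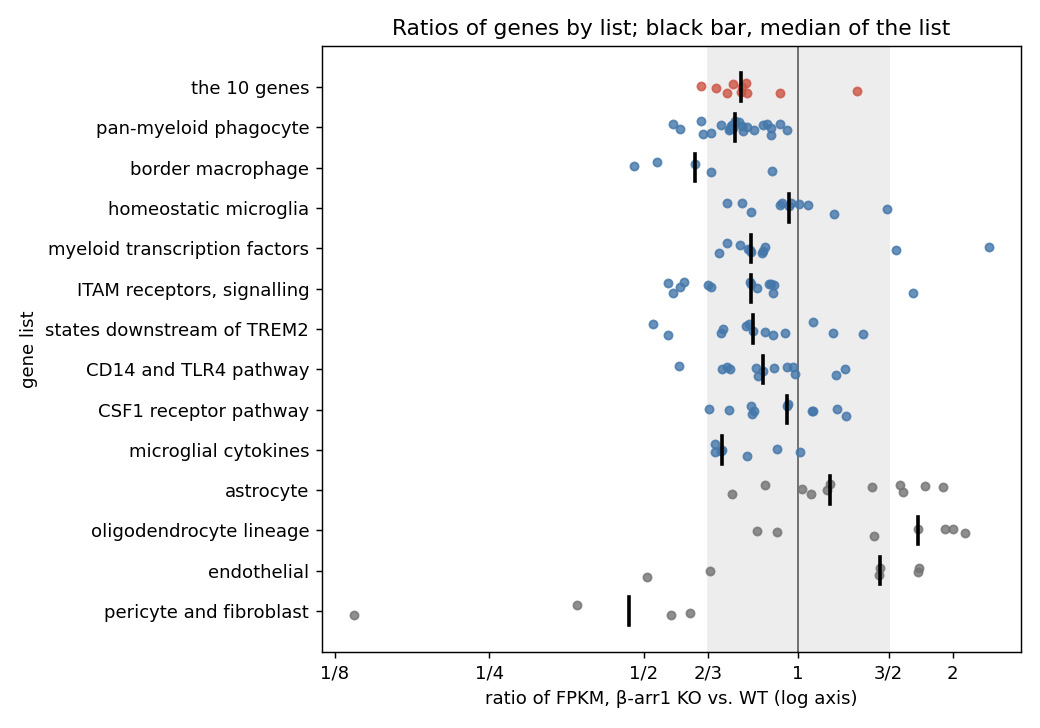
Ratio of FPKM, β-arr1 KO vs. WT, for each gene with a ratio in the lists of microglia, myeloid and other cell type genes, on a log axis with 1 point per gene, a black bar for the median of the list and grey shading for ratios between 2/3 and 3/2. The medians of the 10 genes and of the phagocyte genes lie at 0.775 and 0.753, those of the homeostatic microglia and CSF1 receptor pathway genes at 0.961 and 0.952, and that of the astrocyte genes at 1.15.

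Together, the homeostatic, phagocyte, border macrophage, monocyte and transcription factor lists held 53 genes with a ratio. Of these, 46 were below 1, which is 86.8% beside 46.9% of all genes, and the median was 0.793. Past the limits were 9 below and 2 above. These lists were chosen for their relation to the 10 genes, and genes of one cell type are not independent of each other.

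Markers of other cell types differed between the cultures as well. Of 11 astrocyte genes, 9 had a higher value in KO and 4 were above 3/2, with a median ratio of 1.15, and the summed level was 432 FPKM in WT against 458 in KO. The highest ratio was that of the water channel gene Aqp4, at 7.05 FPKM in WT against 13.5 in KO. The oligodendrocyte lineage genes summed to 86.4 FPKM in WT against 128 in KO, with 4 of 7 above 3/2 and a median of 1.71. The 4 pericyte and fibroblast genes with a ratio were all below 2/3, and the list summed to 525 FPKM in WT against 276 in KO. Of these, the collagen gene Col1a1 was at 420.5 FPKM in WT against 237 in KO. The endothelial genes summed to 45.8 FPKM in WT against 36.9 in KO, with 2 of 6 above 3/2, 1 below 2/3 and a median ratio of 1.44. The sum and the median differed in direction because Cdh5, a cadherin gene, was at 31.8 FPKM in WT against 16.1 in KO. The neuron genes summed to 64.1 and 79.2 FPKM, with Rbfox3 and Snap25 below 1 FPKM in both. Whether cell content had a part in these differences or in the ratios of the 10 genes was not tested.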

How the data were processed

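RNA sequencing of DG astrocytes was available as 1 WT library and 1 β-arr1 KO library, grouped by the genotype in the labels. The authors sequenced read pairs, aligned them to mm9 with TopHat (version 1.4.0 in the submitters' processing notes), ran Cufflinks and deposited 1 table per library that gives each gene its symbol, NCBI gene number, locus and FPKM, already scaled for length and library size. Counts are not columns of these tables, and the FPKM of genes with shared or overlapping reads depends on how Cufflinks divided them. Starts equalled those of GENCODE (NCBIM37) in 38.4% (WT) and 38.7% (KO) of genes when 1 was added, against 3.08% and 3.12% as written, so coordinates here count from 1.

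The tables were joined by symbol, and Spi1 and Adgre1 by NCBI gene number. Genes that reached 1 FPKM in WT or KO were analysed, and no ratio was given where only one table held the gene. Ratios were taken from deposited FPKM with no pseudocount, with the study's limits of 3/2 and 2/3. With 1 library per genotype there was no error between replicates and no p-value. Mapped fragments were estimated from genes under 0.15 FPKM with a transcript above 1000 bases, of which 69.1% in WT and 70.2% in KO fell within 5% of a step of 1 to 3 fragments, with an allowance of 150 bases. Intervals (95%, Clopper-Pearson on the KO share of fragments for ratios, exact Poisson for levels) cover counting error only. The computation was tested on simulated data.

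The 10 genes and the 16 lists of related genes were chosen with earlier results of these data known. Of each list, the text names the 3 genes highest in mean FPKM and those with the highest and lowest ratio, and a list with 8 or fewer analysed genes may be named whole. Some genes that meet these criteria are not reported here. Further names are marked as chosen after their values were seen, or are the genes listed in one table only, the neighbours of Cd68 and the sex-linked genes. Alternatives were other minimums of FPKM, pseudocounts of 0.1 and 1, adding up rows of equal symbol, other scalings of the libraries, limits of 2 and 1/2 and, after seeing the data, shorter transcripts, omission of Csf1r, genes listed in both tables and rows with the same bounds. Python 3.11.15, scipy 1.17.1, numpy 2.4.6, matplotlib 3.10.9 and pandas 2.3.3 were used. Promoter sequences came from RefSeq. The other experiments of the study were not analysed here.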

Additional observations from a re-analysis of the deposited data

How the results depend on the processing

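Under 6 alternatives, all recomputed ratios of the 10 genes stayed within their intervals of counting error, and all 165 recomputed list medians kept their direction. The median of the monocyte genes moved furthest, between -0.76 and -0.10 on the log2 scale. Over 7 choices of scaling, pseudocount and joining of rows, the reported one included, 9 of the 10 ratios were below 1, with Cd68 between 0.638 and 0.647, Csf1r between 0.912 and 0.926 and Csf1 between 1.29 and 1.31. Scaling moved the median of all genes by at most 0.02 on the log2 scale. With limits of 2 and 1/2, the count of the 10 genes below the limit was 0 in place of 1, as Cd68 lay within them.

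Over all genes, including those listed in one table only, 1209 were above and 1045 below the limits. These counts were 2510 and 2315 with no minimum, 2069 and 1896 with a minimum of 0.1 FPKM, 640 and 537 with 5 FPKM, 749 and 621 with 1 FPKM in both libraries, 604 and 559 with limits of 2 and 1/2, and 551 and 464 for rows with the same bounds, a choice made after seeing the data.

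For the lists, the number past the limits changed by more than 1.5 times as follows, and smaller changes of 1 or 2 genes are not listed. With limits of 2 and 1/2 it was 0 of the phagocyte (in place of 4), monocyte (2), ITAM (5), TREM2 state (2), Toll-like receptor 4 (1), astrocyte (4) and endothelial (3) genes, 1 of the border macrophage (3) and transcription factor (2) genes, and 2 of the oligodendrocyte (4) and pericyte and fibroblast (4) genes. With a pseudocount of 1 it was 2 of the phagocyte, 1 of the monocyte, 3 of the ITAM and 1 of the transcription factor genes. With a minimum of 5 FPKM it was 1 of the monocyte and 3 of the ITAM genes. With a minimum of 0.1 FPKM, and with none, it was 4 of the monocyte, 1 of the cytokine (in place of 0) and 3 of the neuron (0) genes. With the libraries scaled by the median ratio, or by the upper quartile, it was 1 of the CSF1 receptor pathway genes (0), as Csf2rb lay near 2/3. The smaller counts under a higher minimum follow from fewer genes.

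No paired analysis was possible because each genotype had 1 library, and for the same reason leaving out a library in turn was not run. Depth limits the genes with few estimated fragments, among them Aif1, P2ry12 and Hcst, and Tmem119 at the transcript length used.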
